A study of Mus musculus with 4 samples.

Results

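The transcription factors described here are 9 genes that set and keep cell identity in the pancreas, namely Ptf1a, Rbpjl, Bhlha15, Nr5a2, Gata4, Gata6, Sox9, Onecut1 and Pdx1. They were chosen by name from the 32285 features of 4 spatial transcriptomes of mouse pancreas, and all 9 had UMIs (unique molecular identifiers, 1 per captured molecule) in all 4 sections. Each section was formalin-fixed, paraffin-embedded pancreas, profiled with the CytAssist Visium workflow, in which gene-specific probes bound to RNA in the tissue are transferred to a slide of barcoded spots. A section was taken as 1 replicate, though the authors' methods do not say whether each came from its own mouse. Both groups were C57Bl/6 mice carrying Pdx1-Cre, a Cre recombinase driven by the Pdx1 promoter and hence active in the epithelial cells of the pancreas. In all, 2 sections (labelled +/+ hereafter) were Ehmt2+/+, with no floxed allele, and 2 (labelled fl/fl hereafter) were Ehmt2 fl/fl, with floxed alleles of Ehmt2, which encodes a histone H3 lysine 9 methyltransferase. All mice were 4 weeks of age, were fasted for 12 h and received caerulein, a cholecystokinin analogue that provokes acute pancreatitis, as 8 hourly intraperitoneal injections of 50 μg/kg, with collection 18 h after the first. The comparisons ask how these factors differ between the genotypes in the inflamed organ, and between spots rich and poor in digestive enzyme, islet hormone and duct transcripts. Spots with at least 500 UMIs were used, and a spot holds several cells, so a level here belongs to a small region and not to a cell.

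Acinar cells make and store the digestive enzymes. Ptf1a is a basic helix-loop-helix protein that binds DNA together with an E protein and with Rbpj or, in the mature acinar cell, its paralogue Rbpjl, and this complex drives many enzyme genes. Bhlha15 (Mist1) governs the secretory architecture of the acinar cell, the nuclear receptor Nr5a2 cooperates with the Ptf1a complex, and the zinc finger proteins Gata4 and Gata6 act in pancreas development and acinar maintenance. Sox9 marks duct and centroacinar cells and the embryonic progenitors, Onecut1 (Hnf6) is needed for duct and endocrine development, and Pdx1 is high in mature beta cells and low in acinar cells. Injured acinar cells are known to lose acinar factors and to gain duct and progenitor ones for a time.

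The 4 sections differed in depth and in tissue makeup, and these differences touch every comparison of genotypes below. Ehmt2 itself was counted at 865 and 31 UMIs in the sections labelled +/+ and at 67 and 96 in those labelled fl/fl, or 19.8 and 3.95 against 10.1 and 12.1 UMIs per 1000000 UMIs of the section (CPM), so it did not show a loss in the labelled knockouts (two-sided exact permutation p = 1), and all directions by genotype rest on the labels alone. Whether its probes lie in the deleted part is not given in the sources used here. Ehmt2+/+ replicate 1 stood apart with 43784930 UMIs, against 6643747 to 7938386 in the other 3. The 32 genes found of a digestive enzyme list took 65.6% and 56.0% of UMIs in the sections labelled +/+ and 23.1% and 22.1% in those labelled fl/fl. The list, called enzymes throughout, also holds acinar products that are not enzymes, namely Clps, Gp2, Reg1, Spink1, Sycn, Tff2 and Zg16. The 1135 olfactory receptor (Olfr) genes, taken here as background, had a median of 0.251 and 4.97 CPM in the first pair and 8.13 and 12.6 CPM in the second. Ehmt2 lay below the 95th percentile of the Olfr genes in Ehmt2+/+ replicate 2 (8.67 CPM) and in both sections labelled fl/fl (16.6 and 21.2 CPM). Its counts there were not set apart from background, so they cannot show whether Ehmt2 was lost. Summed markers of fibroblasts (430 and 602 against 2150 and 2035 CPM), macrophages (68.95 and 120 against 738 and 609) and ducts (235 and 357 against 639 and 593) were also higher in the sections labelled fl/fl, as 91.8% of all genes were on this scale. Per 1000000 UMIs of genes other than enzymes, the fibroblast (1250 and 1368 against 2797 and 2612) and macrophage sums (200.5 and 272 against 959 and 781) stayed apart and the duct sums (682 and 811 against 831 and 761) overlapped. The 8 duct markers did not move together. In the edgeR test described below, log2 fold changes ran from -2.41 for Krt19 to 2.60 for Tspan8, with 5 above 0 and 0 called. In a list of 5 sex-linked genes, Xist had 0 UMIs in every section and the 4 genes on the Y chromosome summed to 0.0457 and 0 against 38.5 and 50.6 CPM, so sex and genotype cannot be told apart. The 4 files list 13898 barcodes in common, which are the fixed barcodes of slide positions and not shared cells.

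Promoter bases are shown for the acinar factors with a RefSeq entry (GRCm38.p6), because the test across the 4 sections called these genes higher in enzyme-rich spots, as described below. Of the 9 factors, 6 had an entry. Each line gives the bases upstream of the annotated start, 5′ to 3′ on the strand of the gene. Capitals mark 2 motifs of the Ptf1a complex searched on both strands, the E-box CACCTG (reverse complement CAGGTG) and the Rbpj core TTCCCA (reverse complement TGGGAA). No match of one overlapped a match of the other in these windows. Positions are those of GRCm38, and those of whole genes are from GENCODE. The RefSeq start of Rbpjl lies downstream of the GENCODE start, so its line stops 54 bases before the former, from which its motifs are counted.
Rbpjl (chr2:164402944-164403140, plus strand, 197 bases): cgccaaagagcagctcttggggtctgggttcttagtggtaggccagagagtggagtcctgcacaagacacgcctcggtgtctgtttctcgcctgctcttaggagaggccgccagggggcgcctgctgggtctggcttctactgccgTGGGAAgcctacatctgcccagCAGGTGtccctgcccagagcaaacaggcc
Ptf1a (chr2:19445413-19445662, plus strand, 250 bases): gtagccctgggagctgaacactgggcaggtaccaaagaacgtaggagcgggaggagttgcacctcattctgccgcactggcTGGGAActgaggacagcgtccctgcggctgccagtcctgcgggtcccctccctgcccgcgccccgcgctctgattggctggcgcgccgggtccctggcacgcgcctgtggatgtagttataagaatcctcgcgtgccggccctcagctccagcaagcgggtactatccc
Nr5a2 (second start, chr1:136953631-136953880, minus strand, 250 bases): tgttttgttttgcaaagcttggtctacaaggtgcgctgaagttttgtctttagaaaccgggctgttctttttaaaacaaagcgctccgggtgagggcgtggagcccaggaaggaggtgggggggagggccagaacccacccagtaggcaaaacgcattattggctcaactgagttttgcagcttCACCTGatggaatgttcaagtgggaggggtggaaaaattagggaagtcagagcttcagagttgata
Bhlha15 (chr5:144190036-144190285, plus strand, 250 bases): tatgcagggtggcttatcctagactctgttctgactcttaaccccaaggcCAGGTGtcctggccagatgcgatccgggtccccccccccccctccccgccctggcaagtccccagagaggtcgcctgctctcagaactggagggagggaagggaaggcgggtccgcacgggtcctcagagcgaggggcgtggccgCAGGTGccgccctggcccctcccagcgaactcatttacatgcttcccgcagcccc
The windows searched ran from 250 bases before to 50 after each start. Rbpjl (chr2:164403141-164415448, plus strand) held both motifs, with CAGGTG starting 82 bases and TGGGAA 104 bases before the start. Ptf1a (chr2:19445663-19447501, plus strand) held TGGGAA 169 bases before its start, Bhlha15 (chr5:144190286-144194441, plus strand) held CAGGTG 200 and 55 bases before it, and Nr5a2 (chr1:136842571-136960448, minus strand) held CACCTG 66 bases before the second of its 2 annotated starts, where the upstream bases lie within the gene but in no annotated exon. Pdx1 (chr5:147269959-147275848, plus strand) held CAGGTG 122 bases before its RefSeq start, which lies downstream of the GENCODE start, so that the match is inside the GENCODE gene, and Onecut1 (chr9:74861921-74891781, plus strand) held neither. Among 32851 promoters of the same length, 20.2% held the E-box, 25.6% the Rbpj core and 5.27% both, so a match is a description of the letters and not a site of binding. Gata4 (chr14:63198922-63271692, minus strand) and Sox9 (chr11:112782224-112787760, plus strand) are given by position only.

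Rbpjl was the factor that differed most between the genotypes. It was counted at 95.2 and 53.2 CPM in the sections labelled +/+ (4166 and 417 UMIs) and at 15.7 and 12.7 CPM in those labelled fl/fl (104 and 101 UMIs), and the groups did not overlap. The group means were 74.2 ± 29.7 and 14.2 ± 2.07 CPM (SD, n = 2 each), and the exact permutation p was 0.33, the smallest that 2 sections against 2 can give. In edgeR's quasi-likelihood test across 20053 genes, Rbpjl fell by 4.67 on the log2 scale (SE 1.15, adjusted p = 0.0464). It was the 1 of 9 factors called, where 0.11% of all genes tested were called. The call was lost, with the same direction, when either section labelled fl/fl was left out (-5.01 and -4.39), under upper-quartile normalization (-3.85), and with all spots of at least 1 UMI or tissue taken from the histogram of UMIs (-4.65 each). The adjusted p ran from 5.72e-28 to 1 over the alternatives. Leaving out Ehmt2+/+ replicate 1 kept it at -2.86. Leaving out Ehmt2+/+ replicate 2 gave -5.60, in a fit that called all 9 factors and 16653 genes in all.

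In the plot of levels by section, the 2 lower Rbpjl values sat near the olfactory receptor genes. Against the median Olfr gene of the same section, Rbpjl stood 379 and 10.7 times higher in the sections labelled +/+ but 1.93 and 1.01 times in those labelled fl/fl. In Ehmt2 fl/fl replicate 2, 48.6% of Olfr genes were at or above it, and in replicate 1, 6.70% were. Over the whole section, the level of Rbpjl in Ehmt2 fl/fl replicate 2 was therefore no higher than background. The share of spots with an Rbpjl UMI was 43.0% (95% Clopper-Pearson interval 41.7 to 44.2) and 5.11% (4.63 to 5.62) in the first pair and 1.56% (1.27 to 1.89) and 1.45% (1.18 to 1.78) in the second. The median Olfr gene was found in 0.179%, 0.483%, 0.833% and 1.52% of spots. With every spot thinned to 500 UMIs, the Rbpjl shares were 4.58%, 2.59%, 0.734% and 0.515%, beside 0.0165%, 0.270%, 0.424% and 0.663% for the median Olfr gene. These intervals cover counting error only.

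**Figure D1:**
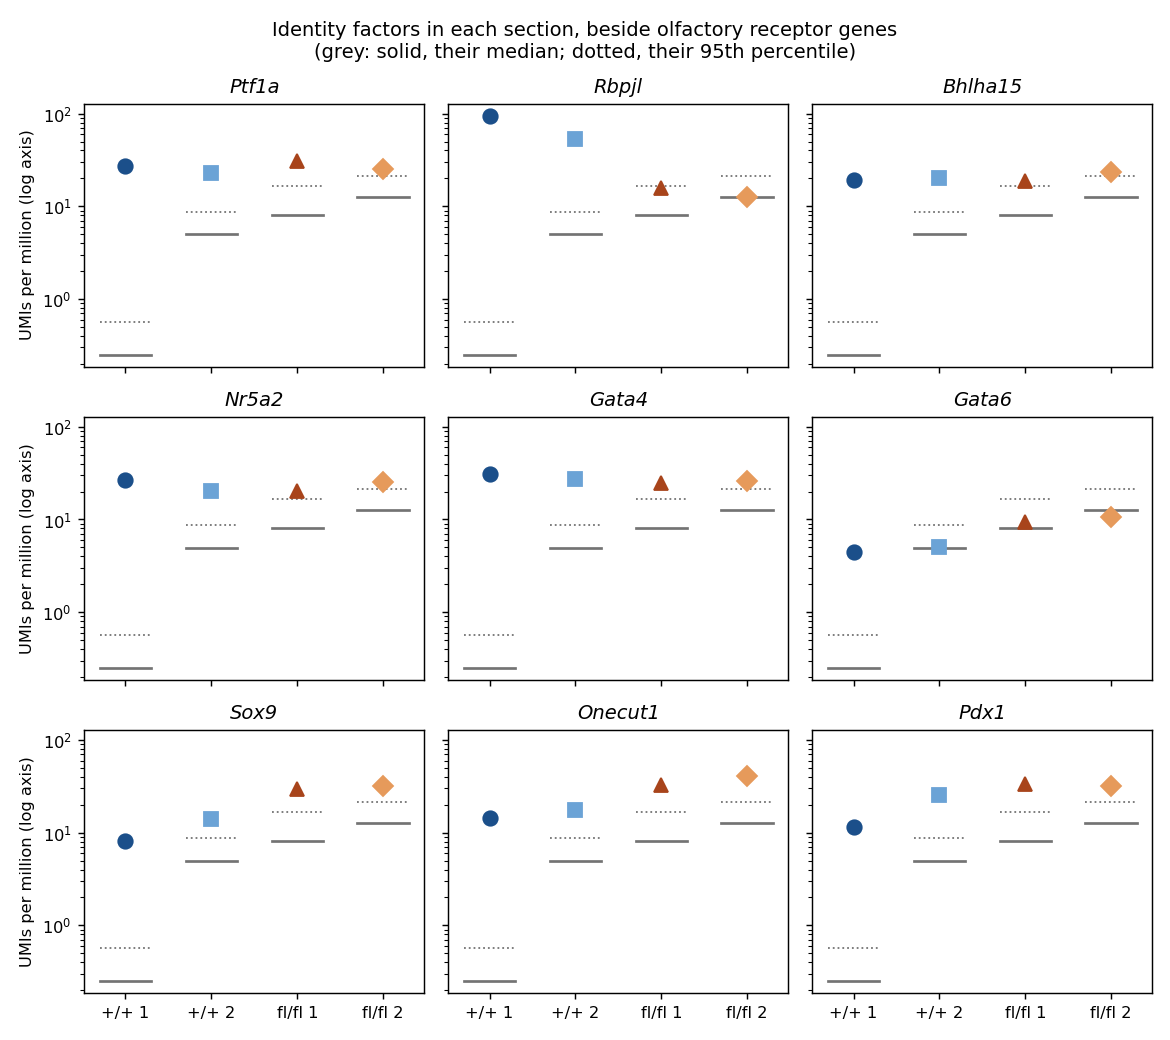
CPM (log axis) of each factor in spots with at least 500 UMIs of the 4 sections, 1 point a section, with the median (solid grey) and the 95th percentile (dotted grey) of the 1135 Olfr genes of the same section. Rbpjl falls from 95.2 and 53.2 in the sections labelled +/+ to 15.7 and 12.7 in those labelled fl/fl, where the Olfr median is 8.13 and 12.6.

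The other acinar factors had nearly equal CPM in the 2 groups, over a background that was higher in the sections labelled fl/fl. As multiples of the median Olfr gene, with +/+ first, Ptf1a stood at 109 and 4.615 against 3.778 and 2.01. Bhlha15 stood at 76.55 and 4.103 against 2.296 and 1.84, and Nr5a2 at 105.1 and 4.051 against 2.5 and 2.03. Gata4 stood at 123.5 and 5.462 against 3.074 and 2.07 on this scale. Ptf1a was at 27.4 and 22.9 CPM against 30.7 and 25.3 CPM in the sections labelled fl/fl, and the groups overlapped. Bhlha15, at 19.2 and 20.4 against 18.7 and 23.2 CPM, and Nr5a2, at 26.4 and 20.1 against 20.3 and 25.6 CPM, overlapped as well. Gata4 was at 31.0 and 27.1 against 24.99 and 26.1 CPM, and its groups did not overlap, by a narrow margin. Gata4 and Rbpjl were thus the 2 factors lower in both sections labelled fl/fl, where 0.778% of genes were lower in this way and 91.8% were higher.

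Duct, progenitor and islet factors were among that majority. Sox9 was at 8.13 and 13.9 CPM in the sections labelled +/+ and at 29.4 and 32.0 CPM in those labelled fl/fl. Onecut1 was at 14.3 and 17.6 against 33.0 and 41.3 CPM, and Pdx1 at 11.4 and 25.5 against 33.9 and 32.1 CPM. Gata6 (chr18:11052064-11085635, plus strand), the factor with the fewest UMIs (195, 40, 63 and 85), was at 4.45 and 5.10 against 9.48 and 10.7 CPM. None of these 4 overlapped between the groups, which is what 91.8% of all genes did, and Gata6 stood at 1.03, 1.17 and 0.850 times the median Olfr gene in the 3 shallower sections.

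Once enzyme UMIs were set aside, the order changed. Per 1000000 UMIs of all other genes (non-enzyme CPM), Ptf1a was at 79.6 and 52.1 against 39.9 and 32.5, Bhlha15 at 55.9 and 46.3 against 24.3 and 29.8, Nr5a2 at 76.8 and 45.8 against 26.4 and 32.8, and Gata4 at 90.2 and 61.7 against 32.5 and 33.5. Each of these acinar factors was then lower in both sections labelled fl/fl, as 7.47% of genes other than enzymes were on this scale, while 42.2% were higher in both. Rbpjl, at 277 and 121 against 20.4 and 16.3 non-enzyme CPM, kept the widest gap. Gata6 was at 12.95 and 11.6 against 12.3 and 13.7 and Pdx1 at 33.1 and 57.9 against 44.1 and 41.2, both overlapping, while Sox9 (23.6 and 31.6 against 38.2 and 41.1) and Onecut1 (41.5 and 39.97 against 42.9 and 53.0) were higher. In these sections, fewer acinar cells and less of a transcript per acinar cell cannot be told apart. Per 1000000 enzyme UMIs, a scale chosen after the data were seen, Rbpjl was at 145 and 94.9 against 67.7 and 57.6, whereas Ptf1a was at 41.7 and 41.0 against 133 and 115. On that scale Rbpjl was lower in both sections labelled fl/fl, as 0.0549% of genes other than enzymes were, and Ptf1a was higher in both, as 99.5% were.

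edgeR with TMM scaling placed all 9 factors below 0, with a median of -2.0 on the log2 scale beside 0.25 over all genes tested and 0.81 over 1104 Olfr genes. Its estimates were -2.34 for Gata4 (SE 0.91), -2.24 for Nr5a2 (SE 0.87), -2.01 for Bhlha15 (SE 0.82) and -2.0 for Ptf1a (SE 0.88), with adjusted p of 0.672, 0.684, 0.750 and 0.812. Gata6 (-0.98), Pdx1 (-0.92), Onecut1 (-0.81) and Sox9 (-0.41) each had an adjusted p of 0.863. Library sizes without TMM factors moved the median of all genes from 0.25 to 1.69. Those library sizes gave Ptf1a 0.15, Bhlha15 0.08, Gata6 1.08, Sox9 1.48, Onecut1 1.22 and Pdx1 0.85, so the direction of these 6 turned. Rbpjl (-2.39) and Gata4 (-0.19) stayed below 0, while Nr5a2 (-0.02) had no clear direction, its CPM overlapping between the groups. On the scale per enzyme UMI used above, Gata4 was at 47.27 and 48.49 against 108 and 118. Nr5a2 was at 40.24 and 35.97 against 87.85 and 115.8 there. Both were higher in both sections labelled fl/fl on that scale, as 99.5% of genes other than enzymes were, while Rbpjl was lower.

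**Figure D2:**
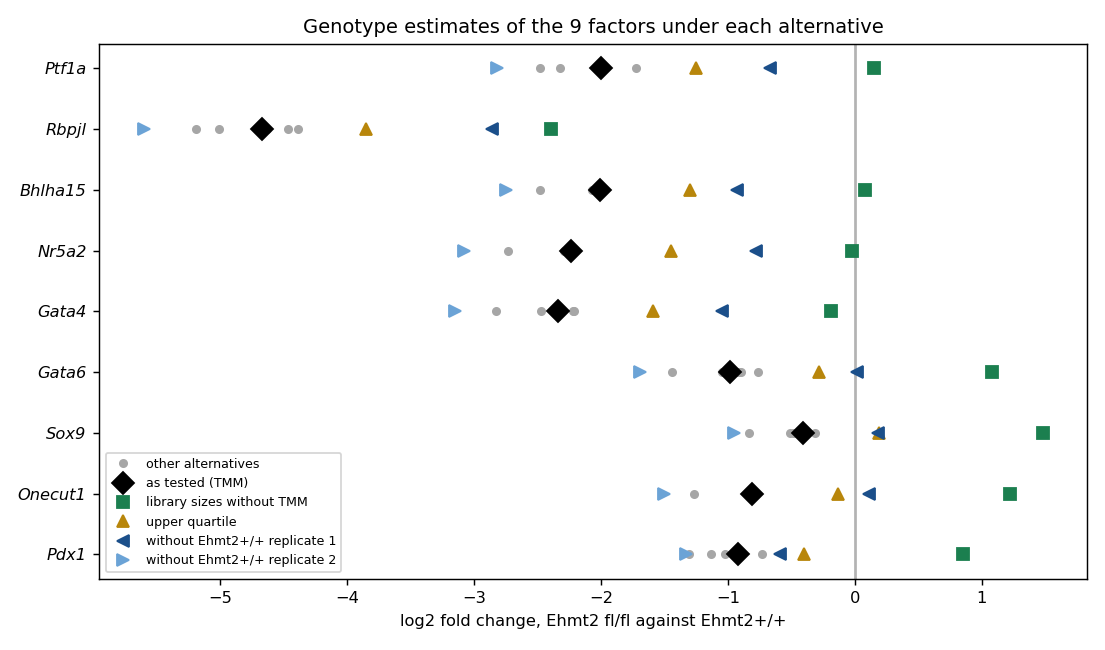
Log2 fold change of each factor, Ehmt2 fl/fl against Ehmt2+/+, from edgeR as tested (black diamond), without TMM factors (green square), with upper-quartile scaling (gold triangle), without either section labelled +/+ (blue triangles) and under the other alternatives (grey). Rbpjl lies between -5.60 and -2.39 in every one, while Sox9 runs from -0.95 to 1.48.

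The 9 factors were also compared between genotypes in the quartile of each section's spots with the highest enzyme share, a choice made after the data were seen. There Rbpjl was at 318 and 161 non-enzyme CPM in the sections labelled +/+ and at 42.05 and 27.9 in those labelled fl/fl, and edgeR gave -3.73 (SE 0.73, adjusted p = 0.00782). Enzymes made up 68.95% and 65.2% of UMIs in these spots of the first pair and 37.3% and 36.2% in those of the second. The poorest quartile of Ehmt2+/+ replicate 2, with a like enzyme share of 37.8%, had Rbpjl at 66.5 non-enzyme CPM. Against the mean Olfr gene of the same spots, Rbpjl stood 3.81 times as high there. In the richest quartile of the sections labelled fl/fl it stood 4.88 and 2.24 times as high, so on that scale these values overlapped.

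Of the other genes known to work with these factors, edgeR with TMM factors called none between the genotypes, while DESeq2 called a few. Over all genes tested, DESeq2 called 2.31% lower, and 1059 of 20053 were at an unadjusted p under 0.05 by edgeR. In a list of 14 partners and regulators of the acinar program, edgeR called 0 (5 at an unadjusted p under 0.05), DESeq2 called 3 as lower, and the median was -0.98. Its largest estimate was that of Xbp1, the transcription factor of the unfolded protein response, at 401.9 and 234 against 154 and 140 CPM (log2 fold change -3.40, SE 1.28, adjusted p = 0.639). Nr0b2, a nuclear receptor without a DNA-binding domain, was at 42.5 and 54.0 against 34.9 and 29.9 CPM (-2.56, adjusted p = 0.651). Among 12 genes of regulated secretion, edgeR called 0 (5 at an unadjusted p under 0.05) and DESeq2 2, with a median of -1.61. The cholecystokinin receptor gene Cckar, through which caerulein acts, stood at 24.6 and 8.29 against 10.99 and 10.8 CPM (-3.03, adjusted p = 0.137), and the gap junction gene Gjb1 at 34.8 and 23.5 against 16.7 and 17.5 CPM (-3.01, adjusted p = 0.270). The groups overlapped for Cckar, which stood at 98.0 and 1.67 against 1.35 and 0.86 times the median Olfr gene. Outside Ehmt2+/+ replicate 1 its counts were thus near background. Duct and progenitor factors had a median of 0.05 over 15 genes and islet factors of 0.50 over 18. In either list 0 were called by edgeR with TMM factors, 0 were at an unadjusted p under 0.05 and 0 were called by DESeq2. Without TMM factors, edgeR called 2 of the islet factors and 0 of the duct and progenitor factors higher, beside 1.93% of all genes. Estimates there included -1.29 for Elf3 and -1.11 for Ehf, epithelial Ets factors, and 1.30 for Hhex, a homeobox factor of delta cells.

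All 5 acinar factors other than Gata6 were called higher in enzyme-rich spots over the 4 sections together, though not each of them was higher in every section. Spots of each section were ranked by the share of their UMIs that came from enzyme genes, and the highest quartile was compared with the lowest, with enzymes left out of library sizes and with section as a block. Rbpjl rose most, by 1.99 on the log2 scale (SE 0.26, adjusted p = 1.31e-07, edgeR). Gata4 rose by 1.03 (SE 0.17, adjusted p = 1.42e-05), Nr5a2 by 0.99 (SE 0.19, adjusted p = 7.96e-05), Ptf1a by 0.91 (SE 0.17, adjusted p = 7.50e-05) and Bhlha15 by 0.81 (SE 0.19, adjusted p = 0.00114). The duct factor Sox9 was called too, at 0.64 (SE 0.18, adjusted p = 0.00657). Gata6 (0.30), Pdx1 (0.13) and Onecut1 (0.13) did not pass, with adjusted p of 0.449, 0.660 and 0.681. The 6 of 9 factors called higher compare with 15.3% of the 19750 genes tested, with 3.6% called lower, and the median of the factors was 0.81 against -0.02 over all genes. Of 1065 Olfr genes, 0 were called higher and 22 lower (2.07%). The richest quartile was also the deeper one in each section, with a median of 8602 against 2453, 1138.5 against 668, 1171 against 844 and 1454.5 against 908.5 UMIs a spot.

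Counts by quartile show the gradient of Rbpjl directly. From the poorest to the richest quartile it had 447, 963, 1321 and 1435 UMIs in Ehmt2+/+ replicate 1, or 208, 255, 286 and 318 non-enzyme CPM. Ehmt2+/+ replicate 2 had 61, 91, 127 and 138 UMIs, or 66.5, 111, 148 and 161 non-enzyme CPM. Both climbed at every step, and the same held in the sections labelled fl/fl. There, replicate 1 had 9, 15, 29 and 51 UMIs (6.58, 11.8, 23.2 and 42.05 non-enzyme CPM) and replicate 2 had 1, 19, 35 and 46 UMIs (0.652, 13.01, 22.7 and 27.9 non-enzyme CPM). Against the mean Olfr gene in the same spots, these 2 sections went from 0.481 and 0.0334 times in the poorest quartile to 4.88 and 2.24 times in the richest, so Rbpjl stood below the mean Olfr gene where enzymes were scarcest and above it where they were richest.

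**Figure D3:**
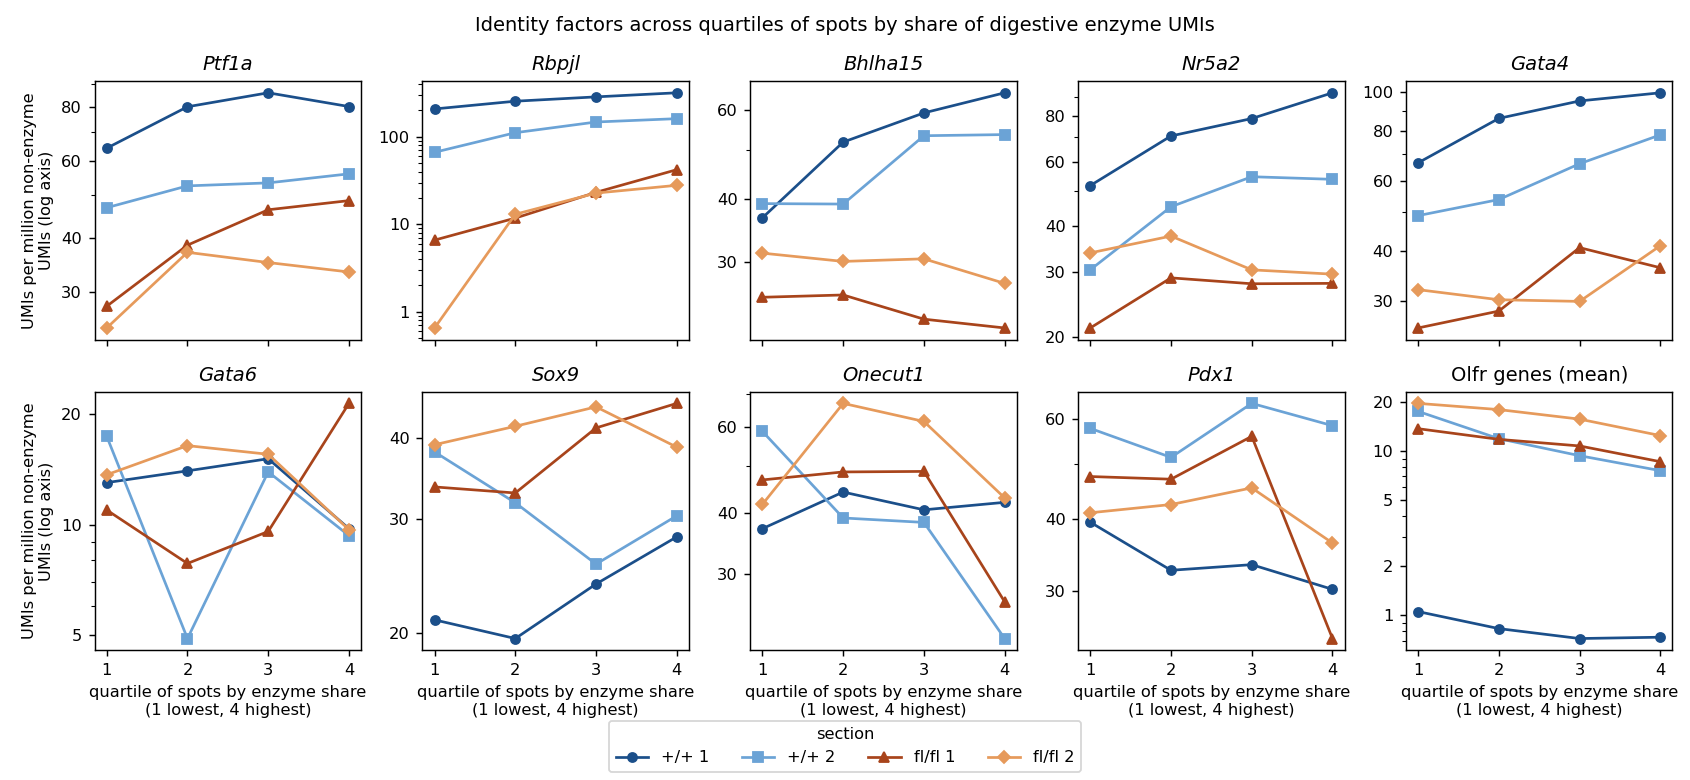
Non-enzyme CPM (log axis, with its own range in each panel) of each factor and of the mean Olfr gene in the 4 quartiles of each section's spots by enzyme share, 1 line a section. Rbpjl climbs at every step in all 4 sections, from 208 to 318 in Ehmt2+/+ replicate 1 and from 6.58 to 42.05 in Ehmt2 fl/fl replicate 1, while the mean Olfr gene is lower in quartile 4 than in quartile 1.

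Among the other factors, Ptf1a and Gata4 were higher in the richest than in the poorest quartile of all 4 sections. Ptf1a went from 64.2 to 80.1, 46.9 to 56.0, 27.8 to 48.6 and 24.8 to 33.3 non-enzyme CPM, and Gata4 from 66.5 to 99.8, 49.0 to 78.2, 25.6 to 36.3 and 32.0 to 41.2. Rbpjl, Ptf1a and Gata4 were the 3 of 9 factors higher in all 4 sections on this unscaled measure, as 4.81% of genes were, while 45.6% of genes were lower in all 4. Nr5a2 went from 51.6 to 92.2, 30.5 to 53.7, 21.2 to 28.0 and 33.9 to 29.7, so the last section ran the other way. Bhlha15 was higher in both sections labelled +/+ (36.8 to 65.0 and 39.2 to 53.7) and slightly lower in both labelled fl/fl (25.6 to 22.3 and 31.3 to 27.3). Its call was lost without TMM factors (0.32) and without Ehmt2+/+ replicate 1 (0.51). Sox9 went from 20.9 to 28.2, 38.1 to 30.4, 33.7 to 45.3 and 39.1 to 38.8, with no common direction, and its call was lost without TMM factors (0.17), without Ehmt2+/+ replicate 1 (0.51) and without Ehmt2 fl/fl replicate 1 (0.58). Rbpjl, Gata4, Nr5a2 and Ptf1a passed an adjusted p of 0.05 with each other tool, scaling, filter, choice of spots and class limit run and with each section left out, whereas an adjusted p of 0.1 with a fold of at least 2 kept Rbpjl and Gata4 alone. Without TMM factors, 1 factor passed that limit. Unscaled log2 ratios of single sections reached at most 0.67 for Gata4, 0.81 for Ptf1a and 0.84 for Nr5a2. The edgeR estimates with TMM factors, 1.03, 0.91 and 0.99 in that order, were larger.

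The slope of Rbpjl differed between the genotypes in the edgeR fit, a call that several alternatives ended. Its log2 ratio of richest to poorest quartile was, in the sections labelled +/+, 0.61 (95% counting interval 0.46 to 0.77) and 1.28 (0.83 to 1.74), and 2.67 (1.64 to 3.88) and 5.42 (2.87 to 10.75) in those labelled fl/fl. The last ratio rests on 1 UMI in the poorest quartile. A term for the difference between genotypes, added after the data were seen, was 2.27 (SE 0.60, adjusted p = 0.0353, edgeR), where 0.441% of genes tested were called. The enzyme share itself spanned a wider range in the sections labelled fl/fl, from 7.86% to 37.3% and 5.42% to 36.2%, than in those labelled +/+, from 58.1% to 68.95% and 37.8% to 65.2%, and its part in the difference was not tested. DESeq2 did not call the term (2.30, adjusted p = 0.0957, in a range of 7.92e-05 to 1 over the alternatives), nor did edgeR with the top and bottom 10% of spots (2.49) or with spots split at the median (1.23), and leaving out any section other than Ehmt2+/+ replicate 2 lost it (1.65 without Ehmt2+/+ replicate 1, 4.10 and 1.52 without Ehmt2 fl/fl replicates 1 and 2). The same term was -1.02 for Bhlha15 (SE 0.35, adjusted p = 0.2997) and -0.89 for Nr5a2 (SE 0.36, adjusted p = 0.552), and lay between -0.43 and 0.68 for the other 6.

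**Figure D4:**
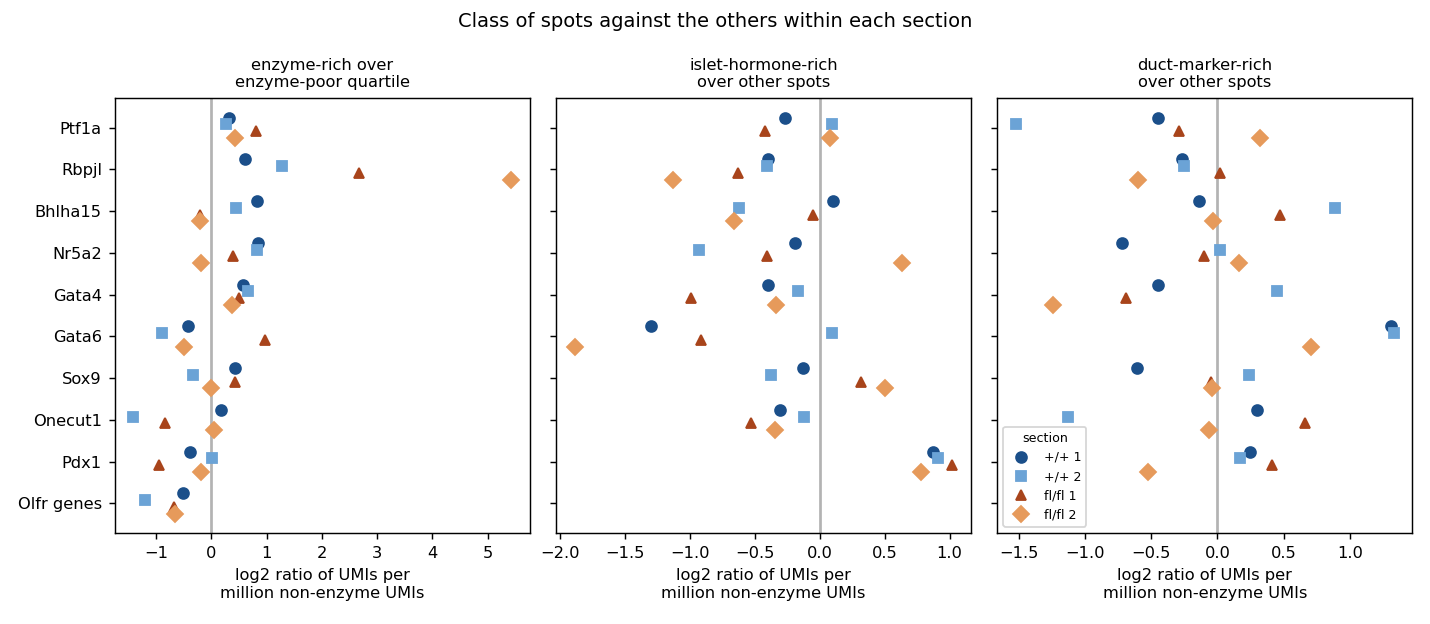
Log2 ratio of non-enzyme CPM between a class of spots and the others within each section (quartiles by enzyme share, islet-hormone-rich spots, duct-marker-rich spots), 1 point a section. The Olfr mean is drawn for the enzyme quartiles alone, and Gata6 has no point for Ehmt2 fl/fl replicate 1 in duct-marker-rich spots, where it had 0 UMIs. Rbpjl is above 0 in all 4 sections in the enzyme panel (0.61 to 5.42), and Pdx1 is above 0 in all 4 in the islet panel (0.78 to 1.02).

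Some partners of the acinar factors were higher in the same spots. In this enzyme comparison, 15.3% of all genes tested were called higher and 3.6% lower. Of 14 partners and regulators, 6 rose and 1 fell, with a median of 0.43. Among those that rose were Xbp1 (1.48, adjusted p = 2.55e-05), the forkhead factor gene Foxa2 (1.10), Nr0b2 (0.97), the E protein gene Tcf12 (0.75), whose product pairs with helix-loop-helix proteins such as Ptf1a, and Creb3l1 (0.67), a factor of the secretory pathway. Esrrg, an estrogen-related receptor gene with 20, 38, 49 and 91 UMIs in the 4 sections, fell by 1.02 (adjusted p = 0.0478). Of 12 genes of regulated secretion 9 rose, with a median of 0.83, namely Rab3d of the zymogen granule (1.36, adjusted p = 5.39e-07), the granule SNARE gene Vamp8 (1.0), Gjb1 (0.99), Stxbp2 (0.95), Rab27b (0.94), Cckar (0.91), Copz2 (0.76), Rab26 (0.62) and Stx3 (0.49). Without TMM factors, 4 of the partners rose and 3 fell, and 4 of the secretion genes rose and 1 fell. On that scaling, 3.06% of all genes were called higher and 33.9% lower. Duct and progenitor factors were mixed, with Hes1 (0.81), Elf3 (0.76) and Myc (0.68) higher and Prox1 (-0.61) lower among 15, a median of 0.11, and 0 higher and 4 lower without TMM factors. Of 18 islet factors 1 was called, the beta cell factor Mafa, which fell by 1.63 (adjusted p = 9.45e-06), and Pax6 was at -1.0 without passing. Without TMM factors 12 of the 18 were called lower, beside 33.9% of all genes.

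Pdx1 had the highest estimate of the 9 factors where islet hormones were found, and its call depended on the method. Islet-hormone-rich spots were the 5% of a section's spots with the largest share of UMIs from 12 hormone and granule genes, which were left out of the test, and they numbered 308, 394, 325 and 324. Pdx1 had 43, 17, 25 and 18 UMIs in them, or 58.2, 104, 84.1 and 68.7 non-enzyme CPM, against 31.8, 55.6, 41.6 and 40 in all other spots of the same sections. It was higher in all 4 sections, as 5.08% of genes were, with log2 ratios of 0.87, 0.91, 1.02 and 0.78. edgeR gave 0.73 (SE 0.29, adjusted p = 0.529), so it was not called, and none of the 9 factors was, with 4 at an unadjusted p under 0.05 (Pdx1, Rbpjl, Gata4 and Gata6). Over all genes 0.743% were called higher and 0.0499% lower. DESeq2 called Pdx1 (0.91), as did edgeR without TMM factors (1.11) and without Ehmt2+/+ replicate 1 (1.0), and the adjusted p ran from 8.6e-05 to 0.960 over the alternatives.

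The islet label of these spots was borne out by the factors that define islet cells. Of 18 islet factors 6 rose, namely Mafa (3.29), Pax6 (2.67), Nkx6-1 (2.28), Nkx2-2 (1.91), Insm1 (1.72) and Neurod1 (1.23). The hormone list itself took 2.45%, 1.44%, 10.9% and 1.77% of UMIs there, and enzymes still took 59.6% and 48.9% in the sections labelled +/+, so acinar transcripts were present in the same spots. Prox1 (1.12, adjusted p = 0.0287) was the 1 of 15 duct and progenitor factors called, and the complexin gene Cplx2 (1.40), of the exocytosis machinery, the 1 of 12 secretion genes. None of the 14 acinar partners was called (1 at an unadjusted p under 0.05, and 0 by DESeq2), and Hnf4a (-0.85) and Gfi1 (-0.49) had the widest estimates. Rbpjl, with 157, 15, 4 and 2 UMIs in islet-hormone-rich spots, was lower there in all 4 sections (log2 ratios -0.40, -0.41, -0.63 and -1.13). Its counting intervals in all sections but Ehmt2+/+ replicate 1 included 0 (-1.26 to 0.33, -2.53 to 0.77 and -4.20 to 0.76). Gata4 and Onecut1 were likewise lower in all 4, as 9.73% of genes were, with counting intervals that reached 0 or above in every section. edgeR gave -0.84 for Rbpjl, -0.71 for Gata4, -0.55 for Onecut1, -0.48 for Bhlha15, -0.40 for Nr5a2, -0.39 for Ptf1a and -0.03 for Sox9, beside -0.19 for the median gene. Gata6 was at -1.41 (adjusted p = 0.310) on 4, 2, 2 and 1 UMIs.

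Duct-marker-rich spots showed no difference that passed the test. These were again the top 5% by share of UMIs, here from 8 duct genes including Krt7, Krt19 and Cftr and with at least 2 such UMIs in a spot, and numbered 172, 249, 325 and 324. The duct genes made up only 0.0917%, 0.251%, 0.309% and 0.267% of UMIs in them, and enzymes 62.0%, 51.7%, 20.3% and 20.3%, so the duct label is weakly borne out. edgeR called 0 of 20013 genes (0% higher and 0% lower, 903 at an unadjusted p under 0.05), and DESeq2 called 4, none of them a factor. Sox9, the duct factor, had 4, 4, 9 and 11 UMIs there, or 15.6, 37.1, 37.1 and 40.1 non-enzyme CPM against 23.8, 31.4, 38.2 and 41.1 elsewhere, and edgeR gave -0.38 (SE 0.39, adjusted p = 0.916). On so few UMIs a difference was not detectable at this depth. Gata4 (-0.83) and Rbpjl (-0.74) were at an unadjusted p under 0.05, and Gata6 (0.21), the 1 positive estimate, had 8, 3, 0 and 6 UMIs. Ptf1a (-0.71), Nr5a2 (-0.59), Pdx1 (-0.22), Onecut1 (-0.19) and Bhlha15 (-0.10) made up the rest, beside a median of -0.22 over all genes. Of the acinar partners, duct and progenitor factors and islet factors 0 were at an unadjusted p under 0.05 in this comparison, of the secretion genes 2 were, and edgeR and DESeq2 called 0 in each list.

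**Figure D5:**
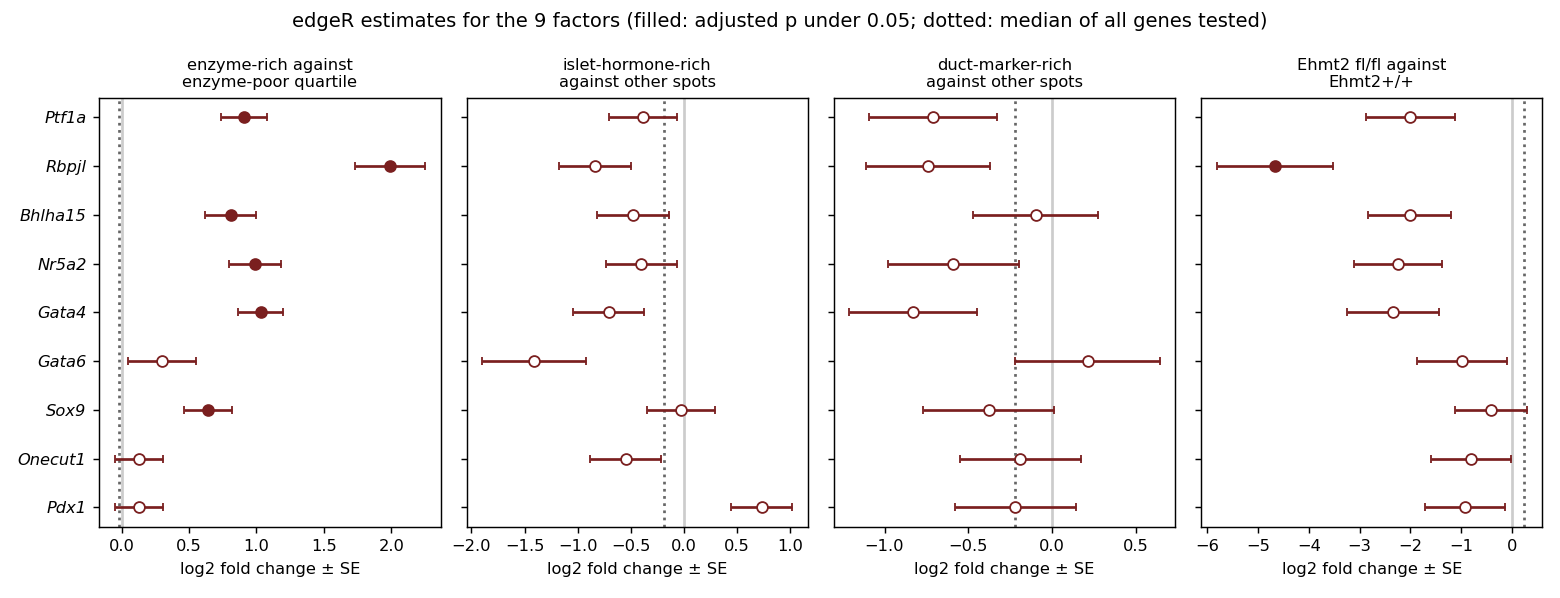
edgeR log2 fold change ± SE of the 9 factors in the 4 comparisons, filled where the adjusted p is under 0.05, with the median of all genes tested as a dotted line and each panel on its own range. The enzyme comparison has 6 filled points, the genotype comparison 1 (Rbpjl at -4.67), and the islet and duct comparisons none.

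In spots rich in markers of other cells, Rbpjl had few UMIs outside Ehmt2+/+ replicate 1. Macrophage-marker-rich spots held 47, 1, 2 and 0 Rbpjl UMIs, or 204, 28.6, 8.44 and 0 non-enzyme CPM, where 3 UMIs, the most that a count of 0 allows, would be 11.1 in the last section. Fibroblast-marker-rich spots held 68, 13, 3 and 0, or 209, 79.1, 12.2 and 0, with a limit of 9.72 for the last. Smooth-muscle-marker-rich spots held 54, 0, 0 and 1, and fat-marker-rich spots 1, 2, 0 and 1. The limits for the 0 counts of smooth muscle were 303 in Ehmt2+/+ replicate 2 and 30.9 in Ehmt2 fl/fl replicate 1. For fat the limit was 48.0 in Ehmt2 fl/fl replicate 1. Each limit lay above the level of Rbpjl over that whole section (121 and 20.4 non-enzyme CPM), so these 0 counts cannot show a low level. Ptf1a had 16, 2, 11 and 5 UMIs in macrophage-marker-rich spots (69.6, 57.1, 46.4 and 18.5 non-enzyme CPM). Pdx1 had 7, 2, 12 and 10 UMIs in the same spots (30.4, 57.1, 50.6 and 37.1) and 13, 7, 9 and 19 in fibroblast-marker-rich ones (39.9, 42.6, 36.5 and 61.5). No test was run on these sparse counts.

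As a last description, the genes most like each factor were sought over 44 points, the 11 classes of spots in 4 sections, by Pearson's r of log2(CPM + 1) centred per section, among 10033 genes with at least 50 UMIs in every section. Gata6 had too few UMIs. The closest were Llgl2 (0.731), Arhgef16 (0.702) and Dhx34 (0.695) for Rbpjl, Cap1 (0.877), Bphl (0.874) and Uqcrb (0.873) for Ptf1a, and Ndufaf3 (0.937), Nsf (0.926) and Umps (0.914) for Bhlha15. Nr5a2 was nearest to Skp1a (0.931), Atf5 (0.923) and Naa60 (0.923), and Gata4 to Ltbp3 (0.943), Lats1 (0.938) and Stk24 (0.932). For Sox9 they were Syde1 (0.907), Itih4 (0.902) and Ggact (0.900), for Onecut1 Zfp750 (0.871), 4931406C07Rik (0.862) and Golgb1 (0.848), and for Pdx1 Cebpb (0.868) and Gadd45g (0.862). The points share libraries and overlapping spots, the smallest classes held 8 and 12 spots, and with classes of at least 100 spots only, a choice made after the data were seen, 0 of the 24 names remained. Among the factors themselves, r ran from -0.239 to 0.347 for Rbpjl, from -0.273 to 0.306 for Onecut1 and from -0.312 to 0.412 for Ptf1a. The highest, 0.897 between Nr5a2 and Gata4, was 0.089 with classes of at least 100 spots only.

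Among spots of like enzyme share and depth, the factors were found together in single spots about as often as their separate shares predict. The prediction was made within each enzyme quartile, split again into quartiles of UMIs a spot. Sharing that follows either gradient is thus left out of the ratios. In Ehmt2+/+ replicate 1, the deepest section, Rbpjl and Gata4 shared 683 spots against 650.5 predicted, and Ptf1a and Rbpjl shared 600 spots against 586.6. Over the 36 pairs of factors, the median ratio of observed to predicted was 1.05, from 0.890 to 1.62. In the other 3 sections no pair shared more than 19 spots, and the medians were 1.0, 0.995 and 0.984.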

How the data were processed

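The authors counted UMIs of each gene in each spot with Space Ranger 2.0.1 (version per the file headers), on mm10 with the mouse Visium probe set. The deposited counts are raw, and off-tissue positions are listed with the rest. They later used SCTransform in Seurat, which was not used here. Of 32589 features, 304 deprecated probes were left out. Spots with at least 500 UMIs were kept (6144, 7871, 6483 and 6462, with medians of 6327.5, 874, 981 and 1113 UMIs). The number of probes per gene is not given in the sources used here, so levels are compared within a gene.

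Groups came from the genotype labels. Counts were summed per section, or per section and class of spots, and fitted by edgeR 4.0.16 in R 4.3.3. TMM factors, filterByExpr (minimum count 10) and the quasi-likelihood test were used, with Benjamini-Hochberg adjustment over all genes tested and a threshold of 0.05. Genotype was the only factor between sections, and section was a block between classes. For CPM and shares of spots the exact permutation test was used, two-sided. Probes were counted once per UMI, and intervals and limits (3 counts) are 95% and cover counting error only. The common dispersion between genotypes was 0.351. The scripts were tested on simulated data. Other steps used matplotlib 3.10.9, scipy 1.17.1, pandas 2.3.3 and numpy 2.4.6 under Python 3.11.15.

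The members and lists were chosen with earlier results of these data known. The text names the 9 factors, the genes of the acinar, duct, islet and secretion lists that passed a test, up to 2 of each list with the largest estimates, and the 3 genes most like each factor. A few genes that meet this rule are not reported here. Alternatives were DESeq2 1.42.0, library sizes without TMM factors, upper-quartile scaling, other filters, other limits on spots and classes, thinned spots and each section left out. Added after the data were seen were the genotype comparison within enzyme-rich spots, the difference of slopes between genotypes, the scales per Olfr median and per enzyme UMI, and the likeness over large classes. Tissue images were not used.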

Additional observations from a re-analysis of the deposited data

Results flagged for a closer look

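Effects of a class of spots were flagged as differing between the genotypes for 3 factors, of which Rbpjl alone passed the test. Bhlha15 and Sox9 were flagged because their ratios pointed opposite ways by genotype. Rbpjl had a larger log2 ratio of the enzyme-rich to the enzyme-poor quartile in the sections labelled fl/fl, and the term for the difference was 2.27 (SE 0.60, adjusted p = 0.0353, edgeR). The call was lost by DESeq2, with the top and bottom 10% of spots, with spots split at the median, and with any section other than Ehmt2+/+ replicate 2 left out. The widths of the enzyme range differed between the genotypes as well, and their part was not tested. Bhlha15 was higher in the enzyme-rich quartile of both sections labelled +/+ (log2 ratios 0.82 and 0.45) and lower in both labelled fl/fl (-0.20 and -0.20). Its term was -1.02 (SE 0.35, adjusted p = 0.2997), which did not pass, and the counting intervals of the ratios of 3 sections, those other than Ehmt2+/+ replicate 1, included 0.

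Sox9 was lower in islet-hormone-rich than in other spots of both sections labelled +/+ (log2 ratios -0.13 and -0.38) and higher in both labelled fl/fl (0.32 and 0.50). It had 16, 4, 14 and 15 UMIs in these spots, and the counting intervals of the ratios of all 4 sections included 0. The difference between genotypes was 1.33 (SE 0.59, adjusted p = 0.602, edgeR), which did not pass the test.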

How the results depend on the processing

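With 2 sections a genotype and 1 deep library, few genotype calls can be firm. No paired analysis was possible because the labels number no replicates, and the numbers used here only name the sections. Beside the 22 genes called between genotypes (11 higher and 11 lower), DESeq2 called 470 (6 higher and 464 lower), library sizes without TMM factors 400 (388 and 12), upper-quartile scaling 3, an adjusted p of 0.1 with a fold of at least 2 called 35, enzyme-rich spots 78 (71 without enzymes), and leaving out a section gave 0 to 16653, with a lone section assumed to vary like the others. The 16653 came without Ehmt2+/+ replicate 2, when all 9 factors were called, and 379 without Ehmt2+/+ replicate 1. The 1 factor called became 0 with tissue taken by the valley between modes, with every spot of at least 1 UMI and with upper-quartile scaling, and 0 to 9 with a section left out.

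Directions by genotype turned without TMM factors (Ptf1a 0.15, Bhlha15 0.08, Gata6 1.08, Sox9 1.48, Onecut1 1.22, Pdx1 0.85) and for Sox9 with upper-quartile scaling (0.19). A section left out gave -1.69 to 0.02 for Gata6, -0.95 to 0.18 for Sox9 and -1.50 to 0.11 for Onecut1. On CPM without enzymes, the log2 ratio of the group means was -0.86 for Ptf1a, -0.92 for Bhlha15 and -0.09 for Pdx1. Shares of spots, fl/fl minus +/+, turned positive when thinned to 500 UMIs (percentage points: Ptf1a 0.168, Bhlha15 0.0932, Nr5a2 0.0842, Gata6 0.261, Sox9 0.991, Onecut1 1.02, Pdx1 0.756), and among non-enzyme UMIs so did Gata6 0.182, Sox9 0.737 and Onecut1 0.345.

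Between enzyme quartiles, 7297 genes were called without TMM factors (604 higher and 6693 lower, with the median of all genes moving from -0.02 to -0.50), 2400 with spots of at least 1000 UMIs and 2105 to 3612 with a section left out. Without TMM factors Gata6 was at -0.17, Onecut1 at -0.35 and Pdx1 at -0.36, and with the top and bottom 10% of spots Pdx1 was at -0.02. A section left out gave -0.04 to 0.42 for Gata6, -0.14 to 0.30 for Onecut1 and -0.04 to 0.31 for Pdx1. The difference of slopes of Rbpjl was 2.30 by DESeq2, 2.49 with the top and bottom 10%, 1.23 with spots split at the median and 1.52 to 4.10 with a section left out.

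In islet-hormone-rich spots, 1 factor was called by DESeq2 and 1 without TMM factors, and 0 to 1 with a section left out. Genes called were 361 without TMM factors and 102 to 156 with a section left out. Turned values were Ptf1a 0.05, Bhlha15 0.04, Nr5a2 0.09 and Sox9 0.34 without TMM factors, and Sox9 0.15 by DESeq2 and 0.11 with the top 2% of spots. A section left out gave -0.77 to 0.02 for Nr5a2 and -0.26 to 0.40 for Sox9. In duct-marker-rich spots, genes called were 4 by DESeq2, 22 without TMM factors, 3 against spots without a duct UMI, 3 with at least 1000 UMIs, 6 with the top 10%, 1 with the top 2% and 0 to 9 with a section left out. Turned values were Bhlha15 0.23, Onecut1 0.13 and Pdx1 0.08 by DESeq2, Bhlha15 0.31, Onecut1 0.26 and Pdx1 0.18 without TMM factors, Gata6 -0.20 and Pdx1 0.39 with at least 1000 UMIs, and Gata6 -0.12 with the top 2%. A section left out gave Bhlha15 -0.32 to 0.40, Nr5a2 -0.84 to 0.03, Gata6 -0.02 to 0.60, Sox9 -0.53 to 0.01, Onecut1 -0.54 to 0.14 and Pdx1 -0.45 to 0.03. The cause of these changes was not tested.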

Other observations

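Markers of other cells also differed between enzyme-rich and enzyme-poor quartiles. The duct keratin gene Krt19 rose by 1.68 on the log2 scale (adjusted p = 6.23e-07, edgeR), the 1 of 8 duct markers called. It was counted at 167, 258, 166 and 133 CPM in the 4 sections, Ehmt2+/+ first, so it did not share the higher duct sum of the sections labelled fl/fl. By edgeR, all 12 islet hormone and granule genes fell, with a median of -2.06, as did 5 of 9 lymphoid, 3 of 8 macrophage, 3 of 6 smooth muscle, 3 of 7 fat and 3 of 4 blood genes, beside 3.6% of all genes. DESeq2 called 7 of the islet genes and 1, 2, 1, 1 and 3 of the other lists lower, and edgeR without TMM factors 12 and 9, 8, 6, 6 and 4, beside 33.9% of all genes. Krt19 was chosen for mention after its value was seen.

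Among the partners of Ptf1a, Rbpj, which takes the place of Rbpjl in the embryonic complex, was counted at 6.19 and 12.6 CPM in the sections labelled +/+ and at 24.5 and 30.7 CPM in those labelled fl/fl. The E protein gene Tcf3 was at 3.95 and 8.54 against 22.4 and 21.0 CPM. Both had higher CPM in both sections labelled fl/fl, as 91.8% of genes did. With TMM factors, edgeR gave -0.27 for Rbpj (SE 0.67, adjusted p = 0.874) and 0.02 for Tcf3 (SE 0.69, adjusted p = 0.990). The rise in CPM was thus not seen on that scaling, and neither gene was called between genotypes.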
